A study of Mus musculus with 13 samples.

Results

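Piezo and acid-sensing channels and the membrane proteins thought to work beside them were followed as 10 genes chosen by name in Ret-positive cells of mouse dorsal root ganglia: Piezo1, Piezo2, Asic1, Asic2, Asic3, Asic4, Stoml3, Tmem150c, Tmem120a and Tmem63b. They are 10 of the 41388 genes in the deposited files, and 8 of them passed the filter on low counts that left 15406 genes for testing. Asic4 and Stoml3 did not pass and are described mainly by their counts. The study measured gene expression by bulk RNA sequencing in 13 libraries of cells sorted by fluorescence, from females and males and from ganglia of 2 spinal regions. L345 stands for the lumbar ganglia L3, L4 and L5, which serve much of the hindlimb, and L6S1 for the L6 and S1 ganglia, through which the pelvic nerve serves bladder and distal bowel. Each sex gave 3 libraries from L345, and L6S1 gave 3 from females and 4 from males.

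All animals were Ret-EGFP mice of strain C57BL/6, aged 3 months, and no group was treated. The genotype tag reads Tg(Ret-EGFP)SJ in all 4 groups, whereas the study design describes heterozygotes with EGFP knocked into the Ret locus, and the labels do not settle which is meant. If the reporter is a knock-in, EGFP occupies 1 Ret copy in the cells of every group. EGFP is driven by Ret in either reading, so the sort was aimed at Ret-expressing cells, which in these ganglia include several kinds of sensory neuron. Libraries were made from 2 to 9 pooled mice and are named here by the letter of its label (A to F). Whether a mouse gave ganglia to both regions is not stated.

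Piezo1 and Piezo2 form trimeric cation channels that open when the membrane is stretched or indented, and Piezo2 is the main transducer of light touch and proprioception in sensory neurons. Acid-sensing channels are sodium channels gated by extracellular protons, built as trimers from the products of the Asic genes, and Asic3 is the subunit best known from sensory ganglia. The remaining 4 genes encode membrane proteins that have been proposed as mechanically gated channels, or as regulators that change how easily such channels open.

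The libraries held 13030096 to 27011995 counts. Ret itself, the gene that drives the sort, was read at 181 to 221 CPM (the count relative to the library's total over tested genes, scaled by the TMM factor between libraries) in 11 libraries, at 154 CPM in male L6S1 D and at 87.3 CPM in male L6S1 E. D and E stood apart in many genes: the median difference from the mean of the other 11 libraries was 1.08 (D) and 1.10 (E) on the log2 scale for genes with under 1 kb of exon, and -0.60 and -0.92 for genes over 10 kb. Markers of nonpeptidergic nociceptors were low in both (median of 12 genes, -0.93 in D and -1.73 in E). Those of C-fibre low-threshold mechanoreceptors were low too (median of 9, -0.79 and -1.14). So were further channels that are mechanically gated or candidates for it (median of 13, -0.66 and -0.99). Markers of immune cells were high (median of 6, 1.22 and 1.75). Markers of peptidergic nociceptors were high as well (median of 9, 0.50 in D and 0.50 in E). They summed to 25733 CPM in D and 32828 CPM in E, and to 8833 to 15163 CPM in the other 11 libraries. Male L6S1 F was at -0.46 for genes over 10 kb and male L6S1 A at -0.14. Neuron-wide markers summed to between 14465 and 23103 CPM over all 13 libraries. Transcripts of other cell types were in the sorted pools too: markers of satellite glia and Schwann cells summed to 9627 CPM in male L6S1 E and to 3187 to 4701 CPM in the other 12 libraries, those of fibroblasts and perineurial cells to 192 to 724 CPM, those of endothelial and mural cells to 229 to 537 CPM and those of immune cells to at most 26.2 CPM. Sex coincides with a difference in the submitters' processing notes, which name STAR and Salmon for the female libraries only, so the 2 cannot be told apart. In bulk samples, fewer cells of a type and less RNA per cell cannot be told apart either.

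Per kilobase of exon, the 10 genes fell into 7 that were plainly detected and 3 at the edge of detection. Mean levels in RPKM (CPM per kilobase of gene length) were 22.9 for Tmem120a, 16.0 for Tmem150c, 14.8 for Asic3, 14.7 for Piezo2, 12.9 for Tmem63b and 12.7 for Asic2. The ranges over the 13 libraries overlapped between every pair of neighbours in that order, and Tmem120a lay above Tmem150c in 12 of 13 libraries. Asic1 followed at 4.76 RPKM, below Asic2 in 13 of 13 libraries, with ranges that did not overlap. Stoml3 (0.0712), Piezo1 (0.0438) and Asic4 (0.0216) were far lower, with no overlap with Asic1, and among these 3 the ranges overlapped again. Tmem120a ranked in the top 16.1% of tested genes by mean RPKM, Piezo2 in the top 22.1%, and Piezo1 in the last percent, at rank 15373.

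**Figure D1:**
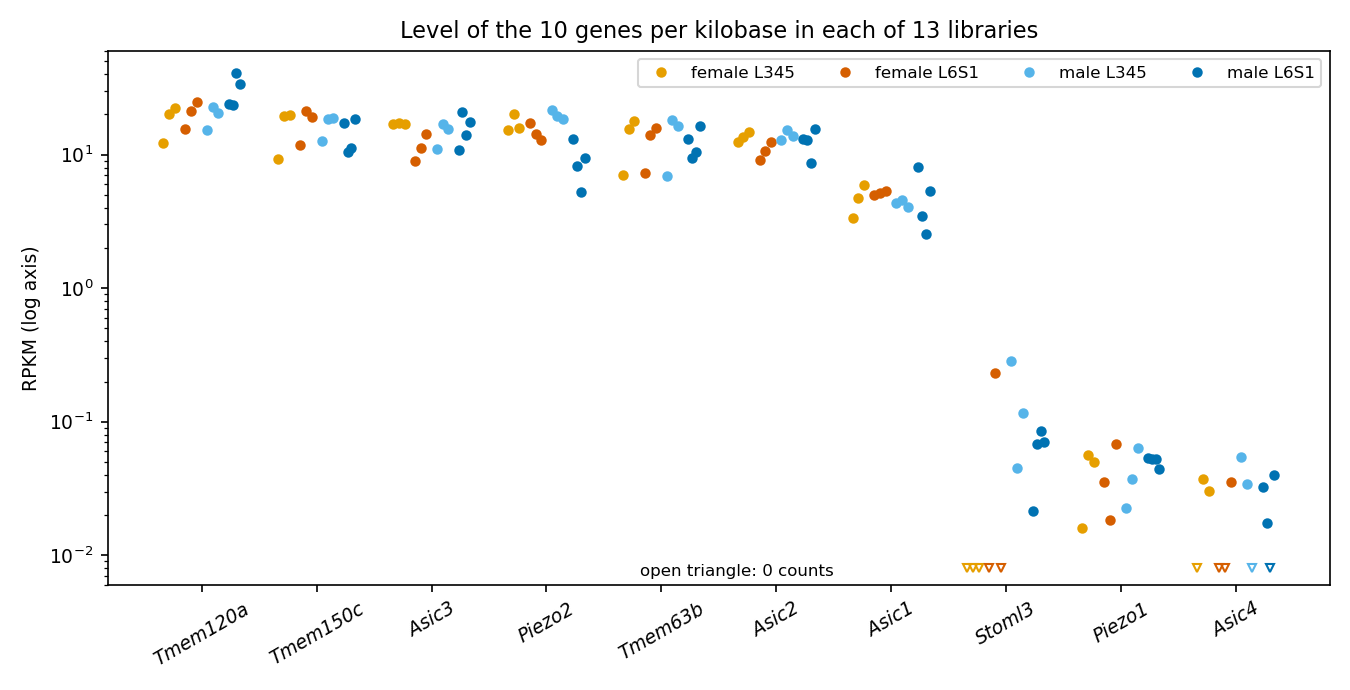
RPKM of the 10 genes in each of the 13 libraries on a log axis, coloured by group, with open triangles at the bottom for libraries with 0 counts. Of the genes shown, 7 lie above 2 RPKM in every library, and Stoml3, Piezo1 and Asic4 lie below 0.3 RPKM.

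Promoter sequence is shown for Piezo1 and Stoml3, near the floor of detection, and for Asic3, which was well detected, so that the bases upstream of each start can be read beside the gene's level. The letters are the 250 bases before the annotated start in RefSeq (build GRCm38.p6), shortened where an annotated exon begins, 5' to 3' on the gene's own strand, with each CG pair in capitals. The Piezo1 stretch is chr8:122551330-122551579 on the minus strand, that of Asic3 is chr5:24413201-24413391 on the plus strand, and that of Stoml3 is chr3:53488457-53488652 on the plus strand.
Piezo1: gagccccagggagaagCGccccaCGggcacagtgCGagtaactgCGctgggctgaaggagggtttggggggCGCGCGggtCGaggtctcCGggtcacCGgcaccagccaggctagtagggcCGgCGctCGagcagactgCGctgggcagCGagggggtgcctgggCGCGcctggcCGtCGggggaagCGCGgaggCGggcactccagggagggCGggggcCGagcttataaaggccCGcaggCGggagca
Asic3: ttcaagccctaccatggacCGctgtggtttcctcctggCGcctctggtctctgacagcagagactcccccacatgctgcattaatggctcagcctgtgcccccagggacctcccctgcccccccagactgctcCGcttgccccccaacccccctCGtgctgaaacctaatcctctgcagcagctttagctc
Stoml3: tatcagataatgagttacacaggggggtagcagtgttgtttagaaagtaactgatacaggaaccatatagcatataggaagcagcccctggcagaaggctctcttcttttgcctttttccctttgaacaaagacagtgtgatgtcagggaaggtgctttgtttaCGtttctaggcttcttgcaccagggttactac

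Piezo1 carried 26 CG pairs in its 250 bases, a count reached or undercut by 91.4% of the 32851 RefSeq windows of that length, whose median was 6. Its window also held the letters TATAAA, searched on both strands, which 12.4% of windows hold. Asic3 had 5 CG pairs in its full window and Stoml3 had 2, and neither held TATAAA. Piezo1 and Stoml3, both near the floor, thus had the most and the fewest CG pairs of the 3. Among the plainly detected genes with a window, the count ran from 5 (Asic1 and Asic3) to 31 (Tmem63b). A match is a description of letters and not of a factor bound there. Of the 10 genes, 8 had such a window, and Piezo2 and Asic4 had none.

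Piezo2 (ENSMUSG00000041482, GRCm38 chromosome 18, 63010213 to 63387183, minus strand, 14.6 kb of exon) was the dominant Piezo channel. It was read with 1309 to 6114 counts per library against 3 to 14 for Piezo1, and per kilobase it stood 99.2 to 962 times higher, with the widest scatter coming from the few Piezo1 counts. Piezo2 was the longest of the 10 genes, and no other annotated exon overlaps its own.

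In females, Piezo2 was read at 225, 292 and 230 CPM in L345 A, B and C, and at 250, 208 and 187 CPM in L6S1 A, B and C. The female groups overlapped, with L6S1 A above 2 of the 3 L345 libraries. In males, L345 gave 315, 285 and 268 CPM in A, B and C, and L6S1 gave 191, 120, 76.6 and 139 CPM in A, D, E and F. Every male L6S1 library lay below every male L345 library, with E lowest and A highest of the 4, a separation in that direction found in 9.49% of all tested genes.

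Averaged over the sexes, Piezo2 had a log2 fold change of -0.67 (SE 0.21, 95% interval -1.11 to -0.24) for L6S1 against L345 and was not called (adjusted p = 0.301, edgeR quasi-likelihood test with Benjamini-Hochberg adjustment). The female difference was -0.21 (interval -0.85 to 0.42, adjusted p = 1). The male difference was -1.13 (SE 0.28, interval -1.73 to -0.54), a 2.19-fold lower level, with an unadjusted p of 0.000919 and an adjusted p of 0.13 in edgeR. The male effect minus the female effect was -0.92 (interval -1.79 to -0.05, adjusted p = 0.409 in edgeR), and was not called.

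The male value of Piezo2 depended on which libraries and which tool were used. DESeq2 called it (-1.12, adjusted p = 0.0105), and so did edgeR without male L6S1 A (-1.37, adjusted p = 0.0124). Both fits called many genes in males: 965 of 12812 in DESeq2 and 3133 of 15294 without male L6S1 A. The main edgeR fit called 34 of 15406. Without male L6S1 D and E the difference was -0.81 (adjusted p = 0.349 in edgeR). With the replicate letters as pairs the level difference was -0.34 (adjusted p = 0.493 in edgeR), in a fit to which male L345 B and C and male L6S1 D, E and F contribute nothing because they have no partner. That value weights the 3 female pairs and the 1 male pair alike, so it is not the average over the sexes. With the sexes weighted equally, an alternative added after seeing the data, the paired difference was -0.47 (adjusted p = 0.222 in edgeR).

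Gene length moved with this result. In males the median level effect was 0.71 for the 1120 tested genes under 1 kb and -0.57 for the 857 genes over 10 kb, and it decreased with each class of length between. Of those 857 long genes, 4.78% had a male effect below that of Piezo2. By their difference from the mean of the other 11 libraries, 24.6% lay below Piezo2 in male L6S1 D and 17.9% in E. In females the median level effects of the length classes ran from -0.20 to 0.07. When each library's trend on gene length was taken out with an offset, an alternative chosen after seeing the data, the male difference of Piezo2 was -0.57 (SE 0.18, adjusted p = 0.191 in edgeR) and the female difference -0.27 (SE 0.19).

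**Figure D2:**
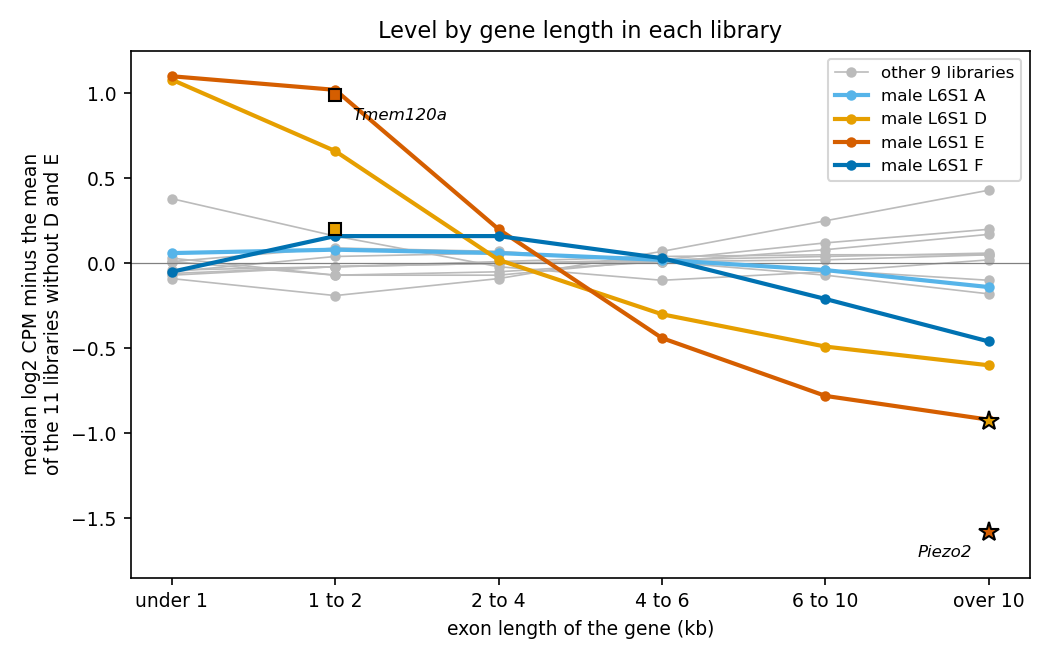
Median log2 CPM of tested genes in 6 classes of exon length, as the difference from the mean of the 11 libraries without male L6S1 D and E, with 1 line per library. Stars mark Piezo2 and squares Tmem120a in D (orange) and E (red). The lines of D and E run from 1.08 and 1.10 for genes under 1 kb to -0.60 and -0.92 over 10 kb. Piezo2 lies below both medians, at -0.93 and -1.58. Of the 857 genes over 10 kb, 24.6% lie lower still in D and 17.9% in E.

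The markers of the neuron types in which Piezo2 is known to act did not move as 1 block. Of 13 tested markers of A-fibre low-threshold mechanoreceptors, such as the neurofilament subunits Nefl and Nefm, none was called in males (median log2 fold change -0.18, against 0.04 over all tested genes), nor was any of 9 markers of C-fibre low-threshold mechanoreceptors (median -0.64, 8 of 9 lower) or of 6 proprioceptor markers (median 0.08). The summed level of the A-fibre list ran from 3974 to 4100 CPM in male L345 and from 3048 to 4903 CPM in male L6S1, and that of the C-fibre list from 2015 to 2097 and from 1642 to 2340 CPM. The proprioceptor list summed to 125 to 174 CPM in male L345 and to 169 to 428 CPM in male L6S1, with 375 in D and 428 in E. Of its 6 tested markers 3 were lower. Fxyd7, its most abundant, averaged 67.9 CPM in male L345 and 243 CPM in male L6S1 (1.84, adjusted p = 0.0687 in edgeR). Fxyd7 has under 1 kb of exon, in the length class whose median male effect was 0.71. Etv1, the next most abundant, averaged 61.6 CPM in male L345 and 39.3 CPM in male L6S1 (-0.65, adjusted p = 0.17 in edgeR). All 12 nonpeptidergic markers were lower in male L6S1 (median -0.69), and none was called. Peptidergic markers went the other way, with a median of 0.67 over 9 genes, 1 of them lower. Among them, 5 had an unadjusted p under 0.05 in edgeR. They summed to 8833 to 10504 CPM in male L345 and to 12599 to 32828 CPM in male L6S1, highest in D and E. Of 9 peptidergic markers 1 was called in males: Gal, the neuropeptide galanin, was at 179, 240 and 187 CPM in male L345 A, B and C and at 371, 1418, 1514 and 703 CPM in male L6S1 A, D, E and F (log2 fold change 2.31, adjusted p = 0.0315 in edgeR). Gal has 0.712 kb of exon, in the class whose median male effect was 0.71, and D and E were its highest libraries. With the length offset its difference was 1.61 (adjusted p = 0.0249 in edgeR), without male L6S1 D and E 1.40 (adjusted p = 0.188), without E and F 2.16 (adjusted p = 0.18), without the A libraries of female L345, female L6S1 and male L345 2.20 (adjusted p = 0.325), without D alone 2.05 (adjusted p = 0.104) and without E alone 2.04 (adjusted p = 0.0944). Leaving out any 1 male L345 library also ended the call (2.22 to 2.45, adjusted p from 0.17 to 0.236), as did leaving out female L345 B (adjusted p = 0.051) or female L6S1 B (adjusted p = 0.0568), and limma voom gave 2.11 (adjusted p = 0.0636).

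Markers of other cell types shifted beside Piezo2 as well. Of 15 satellite glia and Schwann cell markers, such as the myelin protein gene Pmp22, none was called, and their median was -0.64 in males (9 of 15 lower, 7 at an unadjusted p under 0.05) and -0.67 averaged over the sexes (11 of 15 lower, 6 at an unadjusted p under 0.05). Their summed level did not follow the median: it was 3944 to 4701 CPM in male L345, and 4064, 4496, 9627 and 3747 CPM in male L6S1 A, D, E and F. Of 15 endothelial and mural markers none was called either, with a male median of 0.64 and 12 of 15 higher, while their summed level ran from 304 to 481 CPM in male L345 and from 229 to 404 CPM in male L6S1. Fibroblast and perineurial markers had a male median of 0.08 over 11 genes, none called, with sums of 192 to 260 and 247 to 724 CPM, and the 4 tested red cell markers one of 0.45, none called.

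Of 6 tested immune markers 1 was called, C1qb, a complement gene of macrophages. C1qb was at 1.56, 0.978 and 0.73 CPM in male L345 A, B and C and at 2.72, 7.03, 10.7 and 6.89 CPM in male L6S1 A, D, E and F, and at 0.69 to 1.07 and 1.94 to 4.57 CPM in female L345 and L6S1. Every L6S1 library lay above every L345 library. Its difference was 2.66 in males (adjusted p = 0.0315 in edgeR) and 2.18 averaged over the sexes (adjusted p = 0.00667). The male call was lost without male L6S1 D and E (2.16, adjusted p = 0.245), without E and F (2.20, adjusted p = 0.287), without the A libraries of 3 groups (2.95, adjusted p = 0.162), with the length offset (2.05, adjusted p = 0.0814) and in limma voom (2.56, adjusted p = 0.0827). Leaving out any 1 male L345 library, male L6S1 D, E or F or female L345 B also ended it (2.36 to 2.98, adjusted p from 0.051 to 0.236). The averaged call was lost only in the paired fit with the sexes weighted equally (1.22, adjusted p = 0.106) among the alternatives run. The immune list summed to 6.77 to 12.1 CPM in male L345 and to 8.42 to 26.2 CPM in male L6S1, where C1qa was at 0 in all 4 libraries. The 6 tested markers had a median of 0.56 in males, with 1 lower, and of -0.23 in females, with 4 lower. In females the list summed to 7.11 to 11.1 CPM in L345 and to 8.56 to 10.4 CPM in L6S1. C1qc, Cd3e and Cx3cr1 were at 0 in every female L6S1 library. The part of these shifts in the Piezo2 value was not tested.

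Piezo1 (ENSMUSG00000014444, chromosome 8, 122481698 to 122551329, minus strand), the channel known from vessel walls and red cells, had 119 counts in all 13 libraries together. Female L345 A, B and C held 3, 11 and 12 counts, female L6S1 8, 3 and 14, male L345 3, 8 and 13, and male L6S1 A, D, E and F 12, 11, 9 and 12. All 4 groups overlapped. Of its exon bases, 24.6% are shared with Ctu2 on the opposite strand, which had 1711 counts. Because strand handling is not given in the sources used here, reads from Ctu2 cannot be told apart from Piezo1 reads in that part. The averaged level difference was 0.13 (interval -0.75 to 1.01), a wide interval at this depth. Endothelial and mural markers, from cells in which Piezo1 is abundant, summed to 229 to 537 CPM, and red cell markers to 0.466 to 10.2 CPM.

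The acid-sensing subunits were led by Asic3 and Asic2. Their summed level was 23.1 to 38.5 RPKM, to which Asic3 gave 33.8% to 56.2%, Asic2 34.3% to 45.4%, Asic1 9.38% to 25.3% and Asic4 at most 0.193%. Asic2 had the steadiest share (39.3% ± 2.91, SD, n = 13), and that of Asic3 was 45.6% ± 6.54. The share of Asic3 was lowest in male L6S1 A (33.8%) and highest in male L6S1 D (56.2%) and E (55.7%), so the extremes of the whole set lay within 1 group. In females the Asic3 share was 51.8%, 48.7% and 44.7% in L345 and 38.7%, 41.5% and 44.4% in L6S1. The groups did not overlap, though 44.7% and 44.4% lay close together. The Asic1 share separated the other way, at 10.2% to 15.6% in L345 and 16.7% to 21.7% in L6S1. Shares of a sum are tied to each other and to the CPM of Asic3 given below, so they are no separate result.

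**Figure D3:**
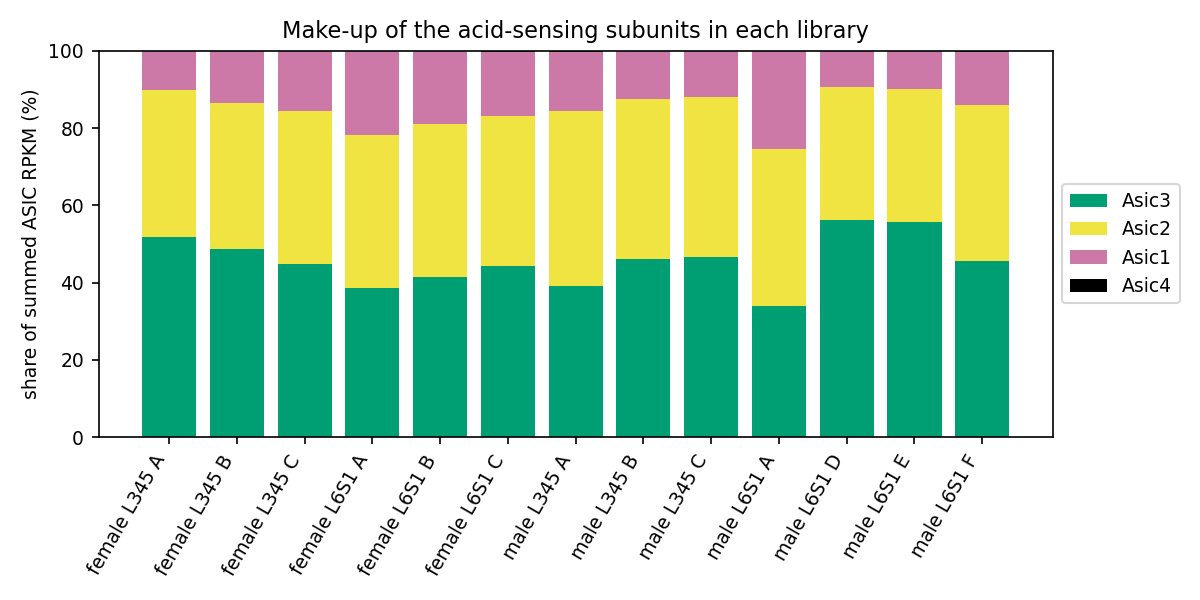
Share of each subunit in the summed RPKM of Asic1, Asic2, Asic3 and Asic4, with 1 bar per library. Asic3 (green) makes 33.8% to 56.2%, Asic2 (yellow) 34.3% to 45.4% and Asic1 (pink) 9.38% to 25.3%, and Asic4 is too low to be visible.

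Asic3 (ENSMUSG00000038276, chromosome 5, 24413392 to 24417835, plus strand) encodes the subunit that opens at mild acidity and is known from muscle and visceral afferents. Female L345 A, B and C gave 33.0, 33.8 and 32.8 CPM and female L6S1 17.4, 21.8 and 27.6 CPM. Every female L6S1 library was below every L345 library, as for 3.86% of all tested genes, and L345 was nearly uniform. Male L345 gave 21.4, 33.0 and 30.2 CPM and male L6S1 A, D, E and F 21.1, 40.6, 27.3 and 34.1 CPM, with overlap. The female difference was -0.58 (SE 0.29, interval -1.19 to 0.04), not called (adjusted p = 1 in edgeR), and the male difference was 0.12 (interval -0.45 to 0.70). The difference between the sexes, 0.70 (interval -0.14 to 1.54), was not called either (adjusted p = 0.424 in edgeR).

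Asic2 (ENSMUSG00000020704, chromosome 11, 80880169 to 81968457, minus strand), whose variants tune mixed channels and have been tied to touch and to baroreception, followed Asic3 in females. L345 A, B and C gave 53.0, 57.6 and 63.7 CPM and L6S1 39.0, 45.5 and 52.8 CPM, so that the highest L6S1 value lay just under the lowest L345 value. A separation of the female groups in that direction was found in 3.86% of all tested genes. In males L345 gave 54.8, 64.9 and 58.5 CPM and L6S1 A, D, E and F 55.8, 54.5, 37.0 and 66.4 CPM, with overlap and E lowest. The difference was -0.35 in females (interval -0.89 to 0.20) and -0.15 in males (interval -0.66 to 0.36), and neither was called in edgeR.

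Asic1 (ENSMUSG00000023017, chromosome 15, 99670368 to 99701130, plus strand), the proton-gated subunit of central neurons, gave 12.5, 17.8 and 22.1 CPM in female L345 and 18.9, 19.4 and 20.2 CPM in female L6S1. Male L345 gave 16.5, 17.2 and 15.1 CPM and male L6S1 A, D, E and F 30.5, 13.1, 9.54 and 20.1 CPM. Male L6S1 held both the highest and the lowest library of the 13, and its SD of 9.23 CPM compares with 1.06 in male L345. The averaged difference was 0.16 (interval -0.36 to 0.68). Without male L6S1 A the male difference turned from 0.17 to -0.19.

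Asic4 (ENSMUSG00000033007, chromosome 1, 75450436 to 75474343, plus strand), a family member that makes no proton-gated current by itself, had 0 counts in 5 libraries and 1 to 3 in the other 8. Stoml3 (ENSMUSG00000027744, chromosome 3, 53488653 to 53508502, plus strand), a stomatin relative that lowers the force needed to open Piezo channels, had 34 counts in all. Stoml3 was at 0 in female L345 A, B and C, at 0, 8 and 0 in female L6S1, at 8, 2 and 5 in male L345 and at 1, 3, 3 and 4 in male L6S1 A, D, E and F. The 7 male libraries thus all had a count and 5 of 6 female libraries had none. A count of 0 allows up to 3 counts, which is 0.126 to 0.163 CPM in female L345 before the TMM factor, and the male counts reach from below that limit to 0.596 CPM. When edgeR was run without the low-count filter, on 26901 genes, Stoml3 was called in none of the 5 comparisons: the difference between the sexes had an unadjusted p of 0.00914 (adjusted p = 0.813), the level difference in females one of 0.00897 (adjusted p = 1) and the male minus female effect one of 0.00465 (adjusted p = 0.482). No fold change is given, since female L345 was at 0. Female L6S1 B alone held the 8 female counts. Asic4 had unadjusted p values of 0.573 to 0.885 in that fit. The coincidence of sex with the processing notes holds here as well.

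Tmem120a, Tmem150c and Tmem63b are the partners that were well detected. Tmem120a (ENSMUSG00000039886, chromosome 5, 135735485 to 135744448, minus strand), also called TACAN, was proposed as a mechanically gated channel and has the fold of a fatty acid elongase. It gave 19.1, 31.3 and 34.8 CPM in female L345 A, B and C, and 24.0, 32.9 and 38.9 CPM in female L6S1. Male L345 gave 23.8, 35.3 and 31.9 CPM and male L6S1 A, D, E and F gave 37.1, 36.5, 63.4 and 52.5 CPM. All 4 male L6S1 libraries lay above male L345, with E and F far above, while the female groups overlapped.

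The male difference of Tmem120a was 0.64 (SE 0.30, interval 0.01 to 1.27, unadjusted p = 0.0461 and adjusted p = 0.192 in edgeR), and the female difference 0.17 (interval -0.49 to 0.83). Male groups that do not overlap, with L6S1 higher, were found in 9.2% of tested genes. At 1.55 kb Tmem120a lies in a length class whose median male effect was 0.61. With the length offset its male difference was 0.18 (adjusted p = 0.747 in edgeR), and without male L6S1 E and F it was 0.28. Among the 8 tested genes, Piezo2 and Tmem120a had the lowest correlation of log2 CPM with each other, -0.746 over the 13 libraries and -0.620 over the 11 without male L6S1 D and E, values that share the libraries' length trends.

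Tmem63b (ENSMUSG00000036026, chromosome 17, 45660171 to 45686905, minus strand), of a family of channels opened by osmotic and mechanical stress, and Tmem150c (ENSMUSG00000050640, chromosome 5, 100077872 to 100159808, minus strand), also called tentonin 3 and linked to slowly inactivating currents of proprioceptors, varied together. Their correlation of log2 CPM was 0.883 over 13 libraries. Tmem63b gave 35.7, 79.0 and 90.5 CPM in female L345 A, B and C, 37.3, 71.6 and 80.5 CPM in female L6S1 and 35.2, 83.4 and 92.2 CPM in male L345 A, C and B. Tmem150c gave 51.1, 109 and 110 CPM in female L345, 65.4, 119 and 107 CPM in female L6S1 and 69.8, 104 and 104 CPM in male L345. In both genes the A library was the lowest of its group in those 3 groups.

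For Tmem63b the 3 A libraries lay at 35.2 to 37.3 CPM and the other 6 libraries of those groups at 71.6 to 92.2 CPM. Tmem120a showed the same split, 19.1 to 24.0 against 31.3 to 38.9 CPM. Male L6S1 did not share it: A, D, E and F gave 66.5, 48.2, 53.7 and 83.7 CPM of Tmem63b and 96.3, 57.9, 62.3 and 102 CPM of Tmem150c, with D and E lowest. The split by A was found after the values were seen, and 16.2% of all tested genes had all 3 A libraries below the 6 others. Markers of red blood cells were higher in those A libraries (median log2 difference 1.96 over 4 genes) and nonpeptidergic markers lower (median -0.60 over 12). The red cell sums were low throughout: 9.55, 3.57 and 10.2 CPM in those A libraries and 0.466 to 2.96 CPM in the other 6. Markers of C-fibre low-threshold mechanoreceptors were higher in A (median 0.64 over 9), and relatives of the 10 genes by family lower (median -0.88 over 7). By the labels, each of those A libraries was the largest pool of its group, with 7 mice in female L345, 7 in female L6S1 and 5 in male L345. Male L6S1 A, with 9 mice, was also the largest of its group and did not share the split. What else the A libraries have in common is not stated in the labels. The part of pool size or of anything else they share in these values was not tested.

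**Figure D4:**
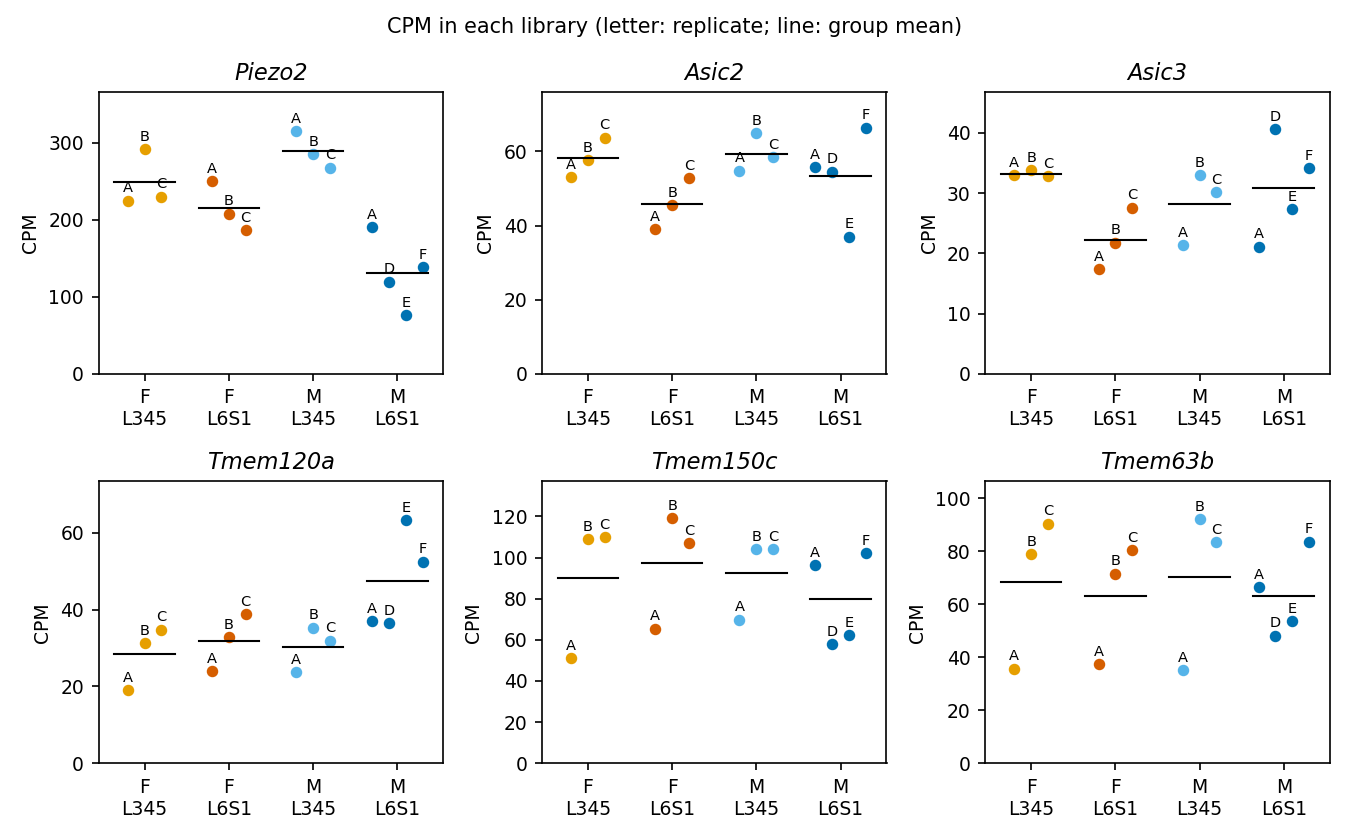
CPM of 6 genes in each library, by sex (F, M) and spinal region, with the replicate letter above each point and the group mean as a line. Piezo2 is lower and Tmem120a higher in all 4 male L6S1 libraries than in male L345, and the A libraries are lowest for Tmem150c and Tmem63b in the first 3 groups.

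The level effect was thus small beside the scatter within groups for both genes. Tmem63b differed by -0.14 averaged over the sexes (interval -0.74 to 0.46) and Tmem150c by -0.05 (interval -0.56 to 0.46). Part of their exons overlaps genes on the opposite strand: 7.73% of Tmem63b bases are shared with Mrpl14 and a predicted gene, and 3.82% of Tmem150c bases with Tmem150cos.

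Across all comparisons none of the 8 tested genes was called by edgeR. For L6S1 against L345 averaged over the sexes, 0 of 8 were called where 0.448% of the 15406 tested genes were, and 1 of 8 had an unadjusted p under 0.05 (8.39% of all tested genes). Within females 0 of 8 were called (0.0195% of all), with 0 of 8 at an unadjusted p under 0.05 (2.25%). The 3 genes called in females compare with 14 when the female libraries were fitted alone, an alternative added after seeing the data, and with 49 when those libraries were also paired in a replicate block. In both, 0 of the 8 were called. Within males 0 of 8 were called (0.221% of all). Of the 8, 2 had an unadjusted p under 0.05 in edgeR, close to the 25.3% of all tested genes. DESeq2 called 1 of them in males, Piezo2, where it called 965 of 12812 genes. The male minus female effect gave 0 of 8 (0% of all, with 1805 genes at an unadjusted p under 0.05, and no gene in DESeq2 or limma voom either). With backgrounds this low, 0 of 8 carries no information about the 10 genes as a group.

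**Figure D5:**
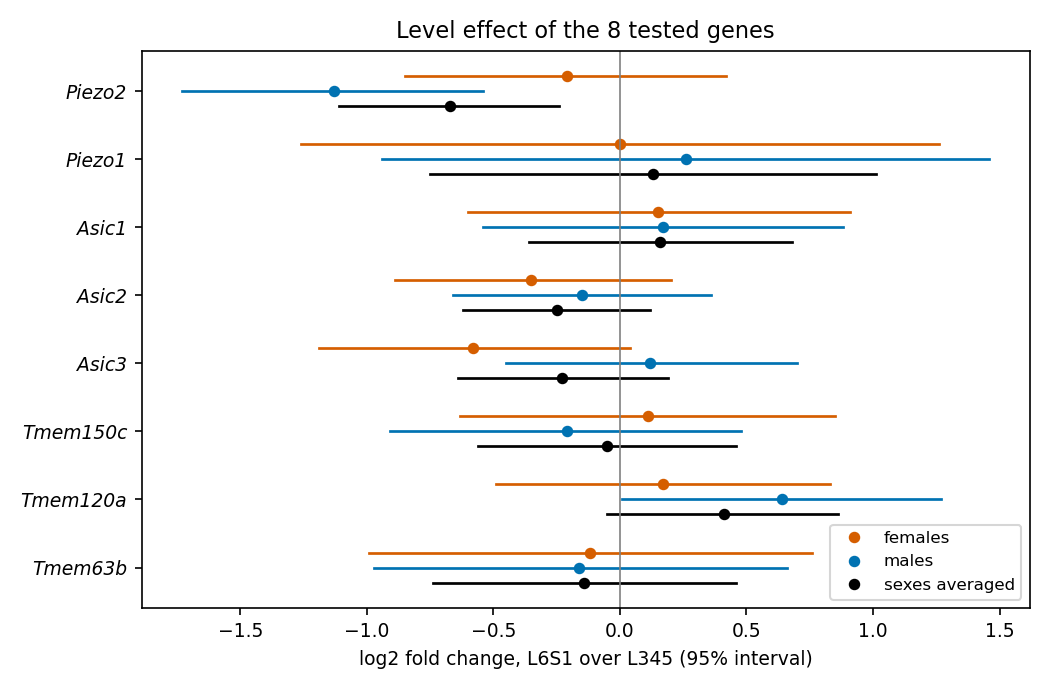
Log2 fold change of L6S1 over L345 with its 95% interval for the 8 tested genes, in females (red), males (blue) and averaged over the sexes (black). The intervals of Piezo2 in males (-1.73 to -0.54) and averaged (-1.11 to -0.24) and of Tmem120a in males (0.01 to 1.27) exclude 0, and none of the genes passed adjustment over all tested genes.

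The median log2 fold change of the 8 was -0.09 for the averaged effect, -0.06 within females and -0.01 within males, against 0.02, 0.00 and 0.04 for all tested genes. Males and females, averaged over the regions, gave 0 of 8 called (0.0779% of all) and 0 of 8 at an unadjusted p under 0.05 (6.1%). The largest such difference was that of Tmem120a, 0.33 (interval -0.12 to 0.79), followed by Piezo2, -0.25 (interval -0.68 to 0.19).

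Among 13 tested further channels that are mechanically gated or candidates for it, 1 was called: Kcnk2, the TREK-1 potassium channel, which opens on membrane stretch and damps excitability. Kcnk2 was read at 13.1, 12.4 and 14.5 CPM in female L345 A, B and C and at 52.2, 42.0 and 39.6 CPM in female L6S1. Male L345 gave 14.7, 14.6 and 14.4 CPM, and male L6S1 A, D, E and F gave 33.4, 19.9, 12.7 and 65.1 CPM. All 3 female and 3 of the 4 male L6S1 libraries lay above every L345 library, and E alone did not. Kcnk2 rose in L6S1 by 1.46 averaged over the sexes (SE 0.30, adjusted p = 0.041 in edgeR). Leaving out any 1 of the 9 libraries outside male L6S1 ended the call, with differences of 1.39 to 1.50 and adjusted p from 0.0802 to 0.159. Limma voom (0.0837), edgeR on library totals alone (0.0933) and edgeR without the A libraries of female L345, female L6S1 and male L345 (0.469) gave adjusted p values over the threshold too. Without male L6S1 D and E the difference was 1.74 (adjusted p = 0.000753 in edgeR), and with the replicate letters as pairs 1.60 (adjusted p = 0.000359), a value that weights 3 female pairs and 1 male pair alike. With the sexes weighted equally the paired difference was 1.46 (adjusted p = 0.0106 in edgeR).

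The most abundant genes of that list, Lhfpl5 and Lrrc8a, were not called. Lhfpl5, a partner of the hair cell transduction channel, averaged 57.2, 48.2, 52.7 and 104 CPM in female L345, female L6S1, male L345 and male L6S1, and Lrrc8a, the volume-regulated anion channel subunit, 325, 358, 378 and 243 CPM. Of the 7 tested relatives by family none was called (median log2 fold change 0.32 averaged over the sexes, 0.02 over all tested genes), and Stoml1 led them by level at 53.4 RPKM, well above its relative Stoml3. None of 9 tested proteins reported to act on Piezo channels was called (median -0.09), among them Anxa6, a membrane-binding annexin, at 679, 637, 706 and 669 CPM in the same group order. Nor was any of 11 reported to act on acid-sensing channels (median -0.01), with S100a10, which carries channels to the membrane, at 906, 791, 849 and 1677 CPM. Tmem150c, Stoml3, Stoml1 and Stom stand in more than 1 of these lists.

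The genes whose pattern over the 13 libraries was most like each member are given as a description by Pearson correlation of log2 CPM, over libraries that share groups, depth and length trends. Piezo2 was matched most closely by Cdc42bpa (0.980), Atxn1 (0.980) and Adam10 (0.972), with 0.936, 0.952 and 0.925 over the 11 libraries without male L6S1 D and E. Tmem120a was nearest to Eif5a (0.981), Ankrd9 (0.977) and Fkbp8 (0.977). Tmem63b lay nearest to Slc27a1 (0.976), Fam53b (0.972) and Fbxl18 (0.965), and Tmem150c to Eif4g1 (0.970), Mast1 (0.970) and Ergic1 (0.957).

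The acid-sensing subunits had less close neighbours. Asic1 was nearest to Kirrel3 (0.934), Asic2 to Bahd1 (0.917) and Asic3 to Tle1 (0.904). Piezo1, with its few counts, reached 0.851 with Cfap44. Within the set, Asic2 and Asic3 had a correlation of 0.576 over the 13 libraries and 0.796 over the 11, and Piezo2 none above 0.421, with Asic1, which became -0.434 over the 11.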

How the data were processed

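Each of 13 libraries, made from 10 ng of total RNA per the labels' protocols, has a file of 41388 genes. The authors deposited raw counts, as whole numbers. The deposited CPM is each count scaled to the library total, and the deposited RPKM is that CPM per kilobase of gene length. Both were recomputed from the counts and differed by at most 5.22e-14 in relative terms. The submitters' processing notes name STAR 2.0.4b, featureCounts 1.4.5, Subread and Salmon, with builds mm10 and GRCm38.p2. The handling of strand and of multi-mapping reads is not given in the sources used here. GENCODE M21 (GRCm38) gave symbols and coordinates (40254 identifiers matched, 1134 did not), and RefSeq gave promoter sequence.

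Printed CPM and RPKM use the library total over the genes that passed the filter times its TMM factor (0.796 in male L6S1 E, 0.925 in D, 1.01 to 1.05 in the others). A floor of 3 counts is 0.111 to 0.23 CPM, for counting error only. No molecular identifiers are named, so amplified reads are not independent molecules. Genes passed filterByExpr (minimum count 10) and were tested with edgeR 4.0.16 (robust quasi-likelihood F-test) in R 4.3.3, with 1 mean per group over all 13 libraries. A gene was called at a Benjamini-Hochberg adjusted p under 0.05. The SE was derived by dividing the size of the log2 fold change by the square root of F. The scripts were tested on simulated data.

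Nothing states that pools share no animals, so p-values measure the spread between these pools. The letters were taken as pairs because deviations from group means of same-lettered libraries of one sex correlated by 0.52 (A), 0.203 (B) and 0.488 (C) in females and 0.101 (A) in males, each above 0.1. The letter does not stand out for every library: male L345 A correlated by 0.203 with male L6S1 D, and female L345 C by 0.252 with female L6S1 B. Same-lettered pools of L345 and L6S1 held equal numbers of mice in female A (7) and B (4). They held 3 and 5 in female C, and 5 and 9 in male A. Alternatives were DESeq2 1.42.0, limma 3.58.1 (voom), other scaling, no filter, replicates left out, the replicate block and, after seeing the data, a gene length offset, the A libraries left out, females fitted alone and a block that weights the sexes equally. Genes named beside the 10 were, of each list, up to 4 called ones and the 2 of highest RPKM, plus the 3 most like each of the 10. The 10 genes and the lists were chosen with earlier results of these data known.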

Additional observations from a re-analysis of the deposited data

Results flagged for a closer look

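Piezo1 in male L6S1 F, at 0.438 CPM, lay apart from the other 3 libraries of its group, which were at 0.519 to 0.534 CPM. The gap was over the 95% limit for an outlier at either end of 4 values. The library held 12 Piezo1 counts and the others 9 to 12. Chance gives such a gap in about 1 group in 20, and the group was searched at both ends for each of the 10 genes, with no other hit.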

How the results depend on the processing

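No edgeR fit but that without male L6S1 A (1, Piezo2) and no other tool but DESeq2 (1, Piezo2) called any of the 8 genes in males, and none was called in the other 4 comparisons under any alternative. Counts of called genes depended on the processing, and so did the number of genes they were taken over (15406 as reported, 12812 to 26901 over the alternatives); the cause was not tested. DESeq2 called 187 averaged over the sexes, 47 in females, 965 in males and 24 between the sexes, against 69, 3, 34 and 12. Without the filter the counts were 144, 34, 264, 1 and 19, in the order averaged, females, males, male minus female, sexes. Limma voom gave 11 in females and 16 in males. Without male L6S1 D and E, 23 genes were called in females, 19 in males and 7 between the sexes, and without E and F 37 averaged, 12 in females and 9 in males. Leaving out the A libraries of 3 groups gave 23, 1, 2 and 6. The length offset gave 12 in females. The replicate block gave 90 averaged, 49 of them shared with the 69, and 49 in females, where the female libraries alone gave 14 without pairing. With the sexes weighted equally the block gave 118 averaged, 37 of them shared. Neither block changed a call of the 8 genes. Leaving out 1 library gave 28 to 129 averaged, 0 to 11 in females, 4 to 3133 in males, 0 between the level effects and 10 to 14 between the sexes. The highest male count was without male L6S1 A and the lowest without male L345 C.

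Of 40 differences (8 genes in 5 comparisons), 15 kept their direction under every alternative and 25 turned at least once, none of them called. With the A libraries left out the sign turned for the averaged level effect of Piezo1 (-0.15), the female level effect of Piezo1 (-0.27) and Asic1 (-0.016), the male level effect of Piezo1 (-0.026) and Asic3 (-0.065) and the sex effect of Tmem63b (-0.13). With no filter the sign turned for the female level effect of Piezo1 (-0.0013). With male L6S1 D and E left out the sign turned for the female level effect of Piezo1 (-0.0035), the sex effect of Asic1 (0.13) and Tmem150c (0.025), the male level effect of Asic2 (0.032), Asic3 (-0.042), Tmem150c (0.094) and Tmem63b (0.086), the averaged level effect of Tmem150c (0.099) and the male minus female effect of Tmem63b (0.21). With male L6S1 E and F left out the sign turned for the female level effect of Piezo1 (-0.0035) and the sex effect of Asic1 (0.027) and Tmem63b (-0.05). With the length offset the sign turned for the female level effect of Piezo1 (-0.022), the sex effect of Piezo2 (0.011) and Asic3 (-0.028), the male level effect of Asic3 (-0.23), Tmem150c (0.025) and Tmem63b (0.055), the averaged level effect of Tmem150c (0.054) and the male minus female effect of Tmem120a (-0.021) and Tmem63b (0.19). With library totals alone the sign turned for the male minus female effect of Asic1 (-0.073), the male level effect of Asic3 (-0.0013) and the sex effect of Tmem63b (-0.057). With limma voom the sign turned for the male minus female effect of Asic1 (-0.15) and Tmem63b (0.011). With the replicate block the sign turned for the averaged level effect of Tmem150c (0.23) and Tmem63b (0.16). With the replicate block and the sexes weighted equally the sign turned for the averaged level effect of Tmem150c (0.31) and Tmem63b (0.42). Leaving out 1 library also turned some. In the averaged level effect Piezo1 ran from -0.15 to 0.36, Asic1 ran from -0.018 to 0.27 and Tmem150c ran from -0.21 to 0.056. In the female level effect Piezo1 ran from -0.57 to 0.32, Asic1 ran from -0.046 to 0.36, Tmem150c ran from -0.18 to 0.33, Tmem120a ran from -0.058 to 0.34 and Tmem63b ran from -0.43 to 0.15. In the male level effect Piezo1 ran from -0.00096 to 0.71, Asic1 ran from -0.19 to 0.37, Asic3 ran from -0.075 to 0.27 and Tmem63b ran from -0.48 to 0.086. In the male minus female effect Piezo1 ran from -0.066 to 0.83, Asic1 ran from -0.34 to 0.22 and Tmem63b ran from -0.36 to 0.24. In the sex effect Piezo1 ran from -0.053 to 0.46, Asic1 ran from -0.28 to 0.0083 and Tmem63b ran from -0.15 to 0.18. Asic4 (16 counts) and Stoml3 (34 counts) were called in none of the alternatives that tested them, and at 3 to 14 counts Piezo1 can show only large differences.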
